A study of Bos taurus with 6 samples.

Results

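The circular RNAs (circRNAs) of 3 heat-shock host genes, HSPA1A, HSPA4 and BAG3, were examined in subcutaneous fat of Qinchuan cattle. Circles were taken where the deposited gene name was exactly one of these symbols, which gave 8 of 14274 circRNAs: 1 of HSPA1A, 6 of HSPA4 and 1 of BAG3. The 6 libraries came from calves (6 months old, 3 libraries) and adults (24 months old, 3 libraries). The labels give the breed, tissue, stage and age, and no sex, treatment or batch. They do not say in so many words that each library is 1 animal, so p-values measure the spread between these libraries. The circles were matched by gene name, but the hosts were selected on measured values, taken here to be their junction reads per library, with library 3 of each age high. Those reads are therefore given as a description and support nothing.

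Heat-shock proteins are chaperones, which bind unfolded proteins and help them refold. HSPA1A is the strongly inducible member of the HSP70 family, transcribed within minutes of heat or other protein-damaging stress under heat-shock factor HSF1, and its gene has no introns in mammals. HSPA4 belongs to the HSP110 branch and releases ADP from HSP70, and BAG3 binds HSP70 and hands clients to autophagy. A circRNA arises from back-splicing, in which the end of an exon is joined to the start of the same or an earlier exon, and it is counted by reads across that back-splice junction. In these bulk samples, fewer cells of a type and less RNA per cell cannot be told apart.

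Junction reads numbered 35616 to 39573 per calf library and 37946 to 47298 per adult library. Of 17 adipocyte genes, 9 had circRNA reads, among them PPARG, CD36 and ADIPOQ, while PLIN1, FABP4, LEP and LIPE had none, which checks circles only and not mRNA. Their sum was 4514 to 6289 CPM (a library's junction reads scaled to the same total in each library) in calves and 2960 to 3769 CPM in adults, and 3 of 4 tested hosts, PPARG, PDE3B and ACACA, fell with age (edgeR; 2 with limma-voom), where 6.54% of 719 hosts were called lower. The fourth and most read, CD36, had a log2 change of 0.87 ± 0.27 (SE; edgeR adjusted p = 0.0535), with every adult above every calf. The ages did not overlap in CPM for 33.5% of the 719 hosts. The skeletal muscle list summed to 6322 CPM in adult 2 and to at most 80.6 in any other library, with 6 of 12 genes at 0 in all. Of 13 macrophage and other immune genes 4 had reads. Their sum was 53.7 to 562 CPM in calves, highest in calf 3, and 1212 to 11509 CPM in adults, highest in adult 3. ADGRE1, a macrophage adhesion receptor gene, gave 600 of those 613 reads, and rose with age (log2 change 4.30 ± 0.87 SE, edgeR adjusted p = 0.00582), a call lost with limma-voom. Adult 3 alone held 457 of its reads, and its mean was 4705 ± 5830 CPM in adults (SD, n = 3). PTPRC, CD68, MRC1 and CSF1R gave none. The immune list was highest in the same library of each age as HSPA1A below, and its part in the HSPA1A values was not tested.

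The HSPA1A circle, as called in the deposited data, was among the circRNAs with most junction reads in this fat. The circle novel_circ_0006997 (ENSBTAG00000025441) spans chromosome 23 from 27331781 to 27350435 on the minus strand, in a genome build that no source used here names. Over the 6 libraries it had 2802 junction reads, and 3 circRNAs had more. Calves 1 to 3 gave 269, 219 and 1580 of them, and adults 1 to 3 gave 69, 105 and 560. Library 3 was the highest at each age, and the ages overlapped, because adult 3 stood above calves 1 and 2.

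As a level, the circle stood at 7228, 5534 and 44362 CPM in calves 1 to 3. In adults 1 to 3 it stood at 1818, 2220 and 14011 CPM. Calf 3 was 6.95 times the mean of calves 1 and 2, and adult 3 was 6.94 times the mean of adults 1 and 2. By rank among circRNAs, it was the most abundant in calf 3, number 3 in adult 3, number 5 in calf 1, 15 in calf 2, 40 in adult 2 and 59 in adult 1. Its share of junction reads was 4.44% in calf 3 (95% exact Clopper-Pearson interval 4.22 to 4.66) and 0.182% in adult 1 (0.142 to 0.230). Without molecular identifiers, reads are not independent molecules, and these intervals reflect the counting of reads alone. The highest library was 24.4 times the lowest.

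The 3 circRNAs with most reads varied less within each age. Those of the PNP locus, which holds the purine nucleoside phosphorylase gene, and of BTNL9, a butyrophilin-like gene, had a within-age SD of log2 CPM of 0.306 to 0.435, against 1.63 for HSPA1A and a median of 0.45 over 663 tested circRNAs. By this SD HSPA1A ranked 57 of 663, and 5 among the 127 with a mean of at least 1000 CPM. Of the 663, HSPA1A alone had library 3 over 4 times both other libraries at each age, a fold set after the values were seen. With no fold required, 111 of the 663 had library 3 highest at both ages, against 64 for library 1 and 54 for library 2.

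The non-junction reads deposited for the HSPA1A circle followed the same libraries. The deposited table gives them for each library that read a circle, and no source used here defines them. Calves 1 to 3 had 5031, 4764 and 33685 of them, and adults 1 to 3 had 2046, 2599 and 12327. Scaled to the non-junction reads of the 1192 circRNAs read in all libraries, calves 1 to 3 stood at 9266, 10502 and 80875 CPM of those loci, and adults 1 to 3 at 6136, 4127 and 24087. Library 3 was again the highest at each age, 8.18 times the mean of calves 1 and 2 and 4.69 times that of adults 1 and 2. Of 1074 tested loci, HSPA1A alone had library 3 over 3 times both others at each age. This fold was also set after the values were seen and is lower than the 4 used for junction reads. High libraries 3 were the pattern that chose the hosts, so standing alone here supports nothing.

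**Figure D1:**
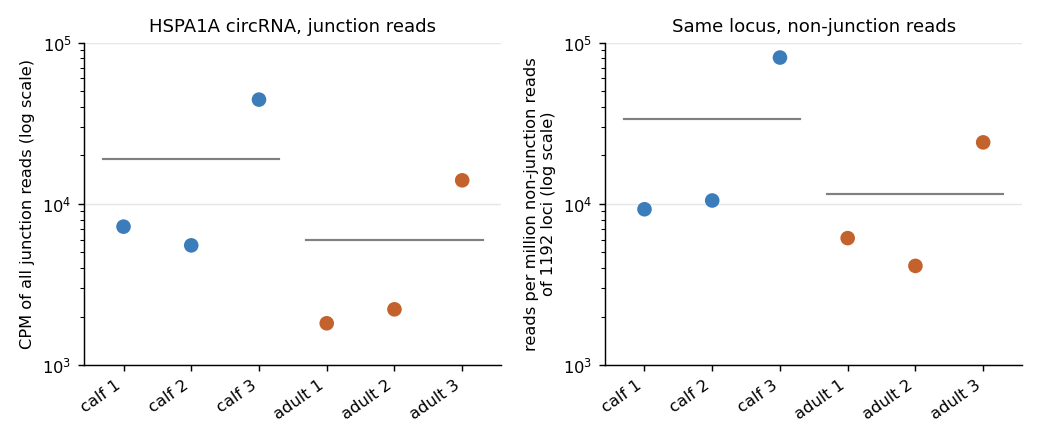
Level of the HSPA1A circle in each library on log scales: CPM of junction reads (left) and CPM of non-junction reads at 1192 loci (right), with calves in blue, adults in orange and a grey line at each age mean. Calf 3 and adult 3 are the highest of their age in both panels, at 44362 and 14011 CPM on the left.

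As counted, the proportion of junction to non-junction reads at HSPA1A varied less than either kind of read, each of which varied over 16-fold. Per 100 non-junction reads calves 1 to 3 had 5.35, 4.60 and 4.69 junction reads, and adults 1 to 3 had 3.37, 4.04 and 4.54. The highest proportion was 1.59 times the lowest, against 24.4 times for junction CPM. For non-junction reads it was 16.5 times as counted and 19.6 times once scaled to the common loci. How many other circRNAs had so small a range of the proportion was not counted. The labels' protocols mention RNase R, which degrades linear RNA, but leave unclear whether it was applied to these libraries. If it was, non-junction reads are no direct measure of the linear transcript.

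As a share of both kinds of read, junction reads made up 5.08% in calf 1 (95% exact Clopper-Pearson interval 4.50 to 5.70), 4.39% in calf 2 (3.84 to 5.00) and 4.48% in calf 3 (4.27 to 4.70). In adults 1 to 3 they made up 3.26% (2.55 to 4.11), 3.88% (3.19 to 4.68) and 4.35% (up to 4.71). All adults lay below all calves, but adult 3 and calf 2 differed by less than their intervals. Of 1070 circRNAs, 8.13% had a ratio with all adults below all calves. The median ratio of all 1070 ran from 5.08 per 100 in calf 1 to 9.61 per 100 in adult 1. After each library was centred on that median, the log2 ratio of HSPA1A was -0.43 ± 0.44 in calves and -0.82 ± 0.59 in adults (SD, n = 3 per age), and the ages overlapped. The centred log2 ratio ran from 0.08 in calf 1 to -1.50 in adult 1, a wider range than before centring.

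**Figure D2:**
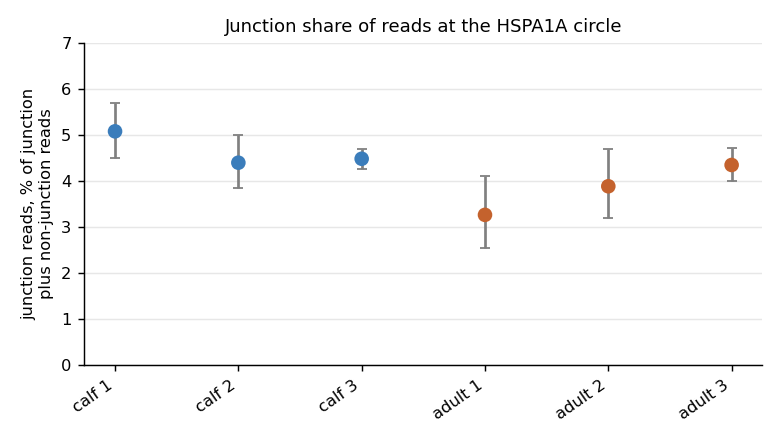
Junction reads as a percentage of junction plus non-junction reads at the HSPA1A circle, by library (calves blue, adults orange), with 95% exact binomial intervals for counting error. All 6 shares lie between 3.26% and 5.08%.

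Adults were compared with calves in fits over the whole table. For junction reads, the mean of the HSPA1A circle was 19041 ± 21945 CPM over the 3 calves and 6016 ± 6926 CPM over the 3 adults (SD, n = 3 each). Its log2 change, adult minus calf, was -1.54 ± 0.84 (SE; edgeR quasi-likelihood adjusted p = 0.234), so 0 of 8 circles was called, and 1 of 8 passed the filter on low counts. That fit called 19% of 663 tested circRNAs, 10.4% as lower and 8.6% as higher in adults, and nothing about HSPA1A is read from it, since these reads chose the host. Summed per host gene the change was -1.60 ± 0.81 (edgeR adjusted p = 0.223), where 12.4% of 719 host genes were called, 6.54% as lower. The authors' deposited tables of changed circRNAs list 81 circles and 0 of these 8.

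Non-junction reads also missed the threshold. Whether they too were in view when the hosts were chosen is not known, so their values are likewise a description. Their log2 change was -1.68 ± 0.92 (SE; edgeR adjusted p = 0.412), in a fit that called 2.23% of 1074 loci, 1.4% as lower. The log2 ratio of junction to non-junction reads differed by -0.39 ± 0.50 (SE; limma adjusted p = 0.77), in a fit that called 0.0935% of 1070 circRNAs, with 148 at an unadjusted p under 0.05. A p that misses the threshold does not show that the ages were alike.

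The size of the age difference depended on libraries 3. Without calf 3 the log2 change of junction reads was -0.07 ± 0.75 (edgeR adjusted p = 0.952) and that of non-junction reads was 0.17 ± 0.64 (adjusted p = 0.909). Without adult 3 they were -3.06 ± 0.86 (edgeR adjusted p = 0.0381) and -2.75 ± 0.99 (adjusted p = 0.231). With both left out, the lower level in adults 1 and 2 than in calves 1 and 2 was past the threshold for non-junction reads (-0.91 ± 0.25, edgeR adjusted p = 0.0456) as for junction reads (-1.57 ± 0.21, adjusted p = 0.00576). The log2 ratio in that fit was -0.74 ± 0.56 (limma adjusted p = 0.538). This pair was left out because earlier results had shown both libraries high, so these values describe the other 4 libraries and support nothing.

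**Figure D3:**
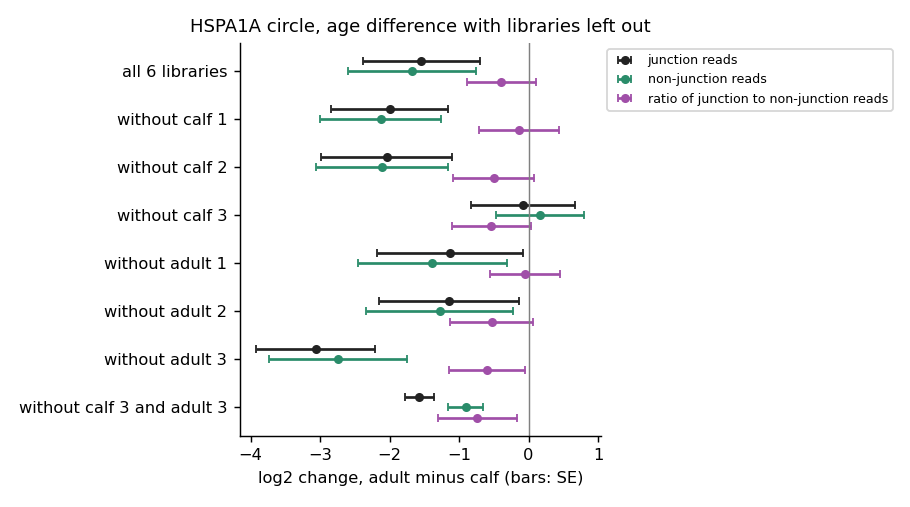
Log2 change of the HSPA1A circle, adult minus calf, with SE bars, for junction reads (black), non-junction reads (green) and their ratio (purple), from all 6 libraries and with libraries left out. Junction and non-junction changes lie near 0 without calf 3 and near -3 without adult 3, while the ratio stays between -0.74 and -0.05.

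The HSPA1A circle also bore on the exonic class, the circRNAs whose listed features are exons only. With it, exonic circRNAs held a share of junction reads of 9.11%, 9.22% and 14.4% (calves 1 to 3) and of 12.2%, 11.6% and 12.5% (adults 1 to 3), and the ages overlapped. Without it, the shares were 8.44%, 8.72% and 10.5% in calves and 12.1%, 11.4% and 11.3% in adults, and every adult lay above every calf. The difference, adult minus calf, was 1.19 percentage points with it (two-sided exact permutation p = 0.4) and 2.37 without it (exact permutation p = 0.1, the smallest that 3 against 3 allows). With the circle, the difference was 0.287 points without calf 1, 0.344 without calf 2 and 2.95 without calf 3. Over these 2 comparisons of the exonic share the Benjamini-Hochberg adjusted exact permutation p was 0.4 and 0.2. Leaving the circle out was chosen after the data were seen. Its reads, high in calf 3, had chosen the host, so leaving it out was bound to lower the share of calf 3. The p-values without it therefore decide nothing, and the shares without it are a description.

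The mapped ends of the HSPA1A circle do not coincide with its exon. The only listed feature is exon 1, from 27331772 to 27333698, whose 1926 bases are also the deposited spliced length. The circle starts 9 bases inside that exon and ends 16737 bases beyond it, so 89.7% of its span of 18654 bases lies in no listed feature. No other circRNA overlaps the span. Of 12150 circRNAs annotated to 1 gene, 150 (1.23%) end more than 10000 bases beyond their listed features, a distance set after the values were seen. Of these, HSPA1A had the second most reads (rank 2). Mammals carry close copies of this gene side by side, and the RefSeq table of the assembly ARS-UCD2.0 lists HSPA1B among the synonyms of its 1 HSPA1A entry and HSPA1L as the next gene. The assignment of these reads to 1 copy is therefore uncertain. Neither mapped end lies at an end of the listed exon, and whether the reads come from a back-spliced circle was not tested.

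HSPA4, the HSP110-type partner of HSP70, gave 6 circles with few reads each. Together, calves 1 to 3 gave 10, 12 and 8 reads and adults 1 to 3 gave 0, 2 and 9. The mean level was 266 ± 39.4 CPM for calves and 89.2 ± 120 CPM for adults (SD, n = 3 each). Calves were close together, adult 3 stood with the calves, and adults 1 and 2 were lower. HSPA4 did not pass the filter on low counts, so it has no test in the fit over all 6 libraries. With no filter the fitted log2 change came to -1.51 ± 0.78 (SE; edgeR adjusted p = 0.499). In the filtered fits that kept HSPA4 it was -1.61 without calf 3 (edgeR adjusted p = 0.334), -0.95 without adult 1 (0.582) and -1.13 without adult 2 (0.557). It was -3.27 without adult 3 (edgeR adjusted p = 0.0833) and -3.37 without calf 3 and adult 3 (0.0588).

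All 6 HSPA4 circles lie on the plus strand of chromosome 7 (ENSBTAG00000015683). The most read was novel_circ_0012353 (46262421 to 46268180), for which calves 1 to 3 gave 5, 10 and 3 reads and adults 1 to 3 gave 0, 0 and 2. It was the only member circle beside HSPA1A with a mean of at least 2 reads. Of the others, novel_circ_0012350 (46239589 to 46263847) had 3 reads in each of calf 1, calf 3 and adult 3. The circle novel_circ_0012349 (46239589 to 46245950) had 2 reads in each of calf 1, calf 3 and adult 2. The remaining 3 had 2 reads in 1 library each, calf 2 for novel_circ_0012351 and adult 3 for novel_circ_0012352 and novel_circ_0012354. The smallest nonzero count in the table is 2, so a 0 here may stand for 1 read.

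**Figure D4:**
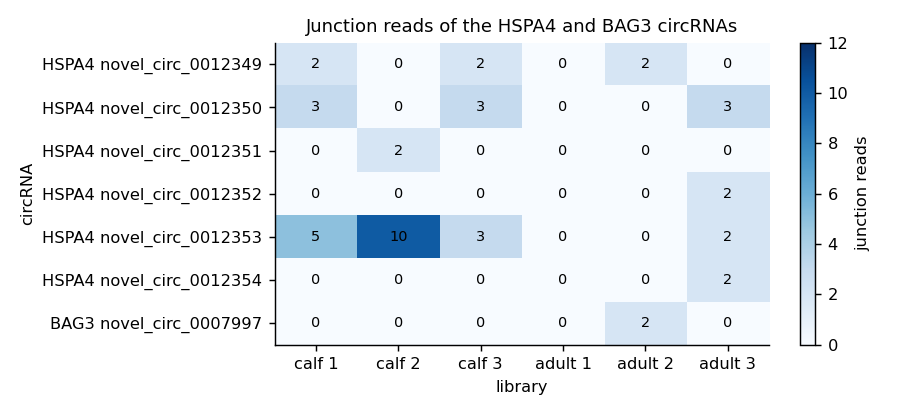
Junction reads of the 6 HSPA4 circles and the BAG3 circle in each library, with the count printed in each cell and darker blue for more reads. The highest cell is 10 reads, for novel_circ_0012353 in calf 2, and adult 1 read none of these 7 circles.

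HSPA4 circles share ends. The start at 46239589 served 2 circles and the end at 46263847 served 3. Of the 6, novel_circ_0012349 and novel_circ_0012353, list introns only, and the other 4 list introns with 1 or 2 exons. In each the span exceeds the spliced length, by 322 to 785 bases. The bases between each end and the nearest listed feature number 0 to 152, against 16737 for HSPA1A.

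Non-junction reads of HSPA4 did not rise with those of HSPA1A in calf 3. For the 3 HSPA4 circles read in both calf 1 and calf 3, they were 123 and 21, 545 and 126, and 70 and 28. These circles overlap or adjoin in 1 gene and are not independent of each other. Scaled to the common loci, calf 1 was 4.49, 3.32 and 1.92 times calf 3. At HSPA1A the order was the other way, with calf 3 at 8.73 times calf 1. In the circle novel_circ_0012353, adult 3 had 90 non-junction reads against 70, 58 and 28 in calves 1 to 3.

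Per kilobase of spliced length, HSPA1A had 1062 to 17490 non-junction reads in the 6 libraries. The HSPA4 circles had 3.48 to 37.4 in the libraries that read them. The spliced length of HSPA4 circles includes introns, so these levels differ in what they cover. Junction reads per 100 non-junction reads ran from 2.22 to 17.2 for novel_circ_0012353 and from 0.550 to 2.38 for novel_circ_0012350, each from 2 to 10 junction reads.

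BAG3, the HSP70 cochaperone gene of selective autophagy, gave 1 circle, novel_circ_0007997 (ENSBTAG00000013641, chromosome 26, 40134842 to 40137378, plus strand). It had 2 reads in adult 2 and 0 in the other libraries, so it allows no comparison. Its ends coincide with the listed start of exon 2 and end of exon 3, with intron 2 between them. In adult 2 the circle had 57 non-junction reads over 2536 bases.

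Of 118 heat-shock genes listed by class, 29 had a circRNA of their own. They gave 66 circRNAs, beside 12150 from 4700 host genes in the whole table, and HSPA1A alone held 2802 of their 3553 reads. Of 4 host genes that passed the filter, HSPA1A, TTC3, DNAJB6 and FKBP5, edgeR called 0, against 12.4% of all 719. At an unadjusted p under 0.05 there was 1, and DESeq2 and limma-voom called 0. The median log2 change of the 4 was 0.31, against 0.01 over all 719. Without HSPA1A, HSPA4 and BAG3, the list summed to 2527 to 2982 CPM in calves and 2820 to 3778 CPM in adults. Calf 3, at 2920 CPM, lay between the other calves there, while adult 3 was the highest adult.

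Among HSP70 and HSP110 genes, 5 of 16 had reads, and after HSPA1A and HSPA4 came HSPA12B with 3. HSPA8, the constitutive HSP70, HSPA5, its counterpart in the endoplasmic reticulum, and HSPH1 had none. Of 4 HSP90 genes only HSP90B1 had reads, 2 in adult 1. Of 10 exchange factors 3 had reads, led by SIL1, the exchange factor of HSPA5, with 18, and followed by BAG3 and BAG6 with 2 each. All 10 small heat-shock genes, including HSPB1 and CRYAB, had 0.

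J-domain proteins, which deliver clients to HSP70, had reads for 10 of 42 genes. DNAJB6, a suppressor of protein aggregation, gave 30, 28 and 22 reads (calves 1 to 3) and 33, 43 and 30 (adults 1 to 3). Calf 3 gave the fewest reads of all 6, and the log2 change of 0.31 ± 0.27 (SE) missed the threshold (edgeR adjusted p = 0.502). DNAJC13 followed with 39 reads, then DNAJC2 and DNAJC16 with 19 each. Of 10 chaperonin genes CCT2 had 6 reads and CCT7 had 4, and of 5 heat-shock factors and regulators HSF2 and HSF5 had 4 each, all in adults.

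Among 21 cochaperones 6 had reads. TTC3, a tetratricopeptide ubiquitin ligase gene, gave 38, 35 and 36 reads (calves 1 to 3) and 37, 40 and 66 (adults 1 to 3; log2 change 0.31 ± 0.29 SE, edgeR adjusted p = 0.538). Only adult 3 stood apart, and the change was -0.01 without it. FKBP5, a glucocorticoid-induced immunophilin of the HSP90 complex, had 6, 2 and 11 reads in calves and 23, 23 and 15 in adults. Every adult lay above every calf, and 33.5% of 719 host genes had ages that did not overlap in CPM. Its log2 change of 1.57 ± 0.54 (SE) missed the threshold (edgeR adjusted p = 0.0753) and ran from 1.10 without calf 2 (adjusted p = 0.236) to 2.25 without calf 3 (adjusted p = 0.031), the only library whose removal alone brought it past the threshold.

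CHORDC1, an HSP90 cochaperone gene, had 5 reads in calf 3, 6 in adult 3 and 0 in the other 4 libraries. This is the same pair of libraries in which HSPA1A was high, but the share of all hosts read in that pair alone was not counted. Other listed hosts with few reads had other patterns, such as GAK with 4 in calf 1 and 5 in adult 3, and CCT7 with 4 in calf 3. STIP1, which links HSP70 to HSP90, had 3 reads, all in adult 3. These counts are too low for the test, and a 0 may stand for 1 read. SUGT1 had 9 reads, 7 in adult 2 and 2 in adult 3, and HSPBAP1 had 2, in adult 1.

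**Figure D5:**
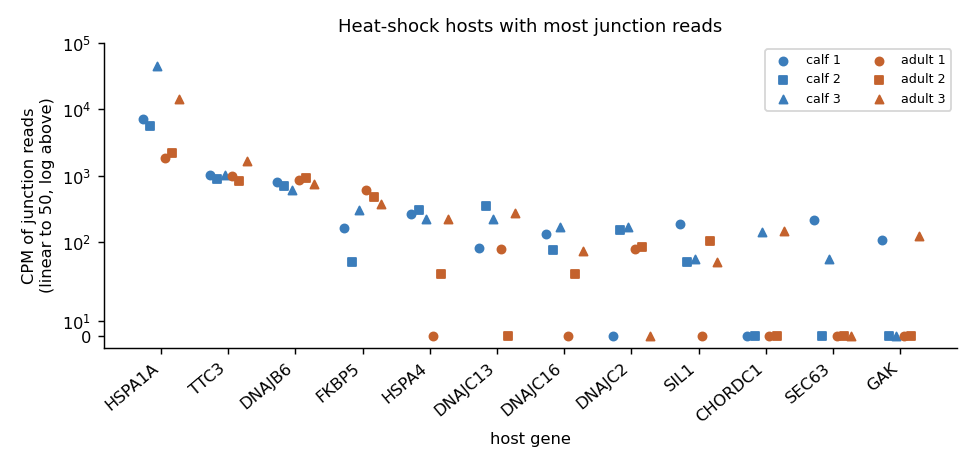
Junction reads (CPM, linear to 50 and logarithmic above) of the 12 heat-shock hosts with most reads, 1 symbol per library (calves blue, adults orange, circle, square and triangle for libraries 1 to 3). The triangles of HSPA1A stand above its other symbols at each age, and CHORDC1 has only triangles above 0.

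A second list held 45 immediate-early, glucocorticoid and stress-response genes, of which 11 had reads. FOS, JUN, ATF3, EGR1 and HMOX1 were among the 34 with none. Of 3 tested hosts edgeR called 2, both higher in adults, and 0 lower, against 5.84% of 719 hosts called higher. MT1A, a metallothionein gene, had 0 reads in calves and 215, 373 and 163 in adults 1 to 3 (edgeR adjusted p = 7.33e-06), so that adult 3 was the lowest adult. Metallothionein genes have close copies, so the assignment of its reads is uncertain. ZBTB16, a glucocorticoid-induced zinc-finger factor gene, rose in adults (433 ± 525 CPM in calves against 2301 ± 999; SD, n = 3 each), by a log2 change of 2.51 ± 0.62 (SE; edgeR adjusted p = 0.0169). It had 4, 6 and 37 reads in calves and 117, 125 and 47 in adults, so calf 3 was the highest calf and adult 3 the lowest adult. The ZBTB16 call was lost without calf 2 (edgeR adjusted p = 0.108), adult 1 (0.062) or adult 2 (0.0756) and with DESeq2 (0.0938), and the log2 change was 4.18 without calf 3. KLF9 did not pass (edgeR adjusted p = 0.449). MT1E, another metallothionein gene of the list, had 0 reads in calves and 8, 6 and 9 in adults 1 to 3. It did not pass the filter on low counts, and adult 3 gave the most of its reads. The high HSPA1A value of adult 3 stood beside the lowest adult values of MT1A and ZBTB16, but not of MT1E. That of calf 3 stood beside the highest calf value of ZBTB16 and the highest calf sum of the list. This sum was 2246 CPM in calf 3, against 1048 and 682 CPM in calves 1 and 2.

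The circles closest to HSPA1A in pattern were sought among 662 other tested circRNAs, by Pearson's r of log2(CPM + 1) over the 6 libraries. The top 5 were those of PAFAH1B1 (r = 0.98), a dynein regulator gene, UHRF1BP1 (0.94), VPS13D (0.93), USP33 (0.91), a deubiquitinase gene, and UBE2D1 (0.91), an ubiquitin-conjugating enzyme gene. Their sizes of change were far smaller. PAFAH1B1 ran from 1001 CPM in adult 1 to 1376 CPM in calf 3, with 1155 and 1061 in calves 1 and 2, 1015 in adult 2 and 1226 in adult 3. Among 718 other host genes the top 5 were AQPEP (0.95), an aminopeptidase gene, DENND4A (0.94), LAMA4 (0.93), a laminin chain gene, SENP6 (0.92) and USP33 (0.92). AQPEP ran from 343 CPM in adult 1 to 1881 CPM in calf 3. These are the highest of many r over 6 points that share libraries and depth.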

How the data were processed

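Back-splice junction reads were measured in 6 cattle fat libraries. The deposited table holds, per the file headers, 1 junction read count per circRNA and library, and a column headed TPM that holds CPM, differing from CPM recomputed here by a share of at most 4.8e-15. The authors' deposited comparison lists give group means of scaled reads (a signal), log2 fold changes and p-values, and were used only to look up the members. Of tools, TopHat2 2.0.14, Cufflinks and Trim Galore appear in the submitters' processing notes. The circRNA caller: not given in the sources used here.

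Counts were tested with edgeR 4.0.16 (R 4.3.3; filterByExpr, TMM, quasi-likelihood) over all circRNAs, and over host genes summed across circRNAs of 1 gene, which left out 142 circRNAs of 2 or more genes and 1982 of none. Non-junction reads of the 1192 circRNAs read in all libraries were tested the same way. Ratios were tested with limma 3.58.1 on log2 values (pseudocount 0.5, mean of at least 10 non-junction reads, libraries centred on their median). Benjamini-Hochberg adjustment ran over each whole table, with a threshold of 0.05. DESeq2 1.42.0, limma-voom, other filters and scalings, a replicate block and left-out libraries were alternatives. The functions were tested on simulated data. Members and lists were chosen with earlier results of these data known. Named were all members, list hosts that passed, the 3 hosts with most reads per class and the 5 closest patterns; other listed hosts were named after their values were seen.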

Additional observations from a re-analysis of the deposited data

How the results depend on the processing

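Without 1 library, the log2 change of the HSPA1A circle ran from -3.06 to -0.074 for junction reads, from -3.14 to -0.057 summed per host gene, from -2.75 to 0.17 for non-junction reads (0.17 without calf 3) and from -0.59 to -0.05 for the ratio. Junction reads also passed the edgeR threshold without a filter (-1.60 ± 0.23 SE, adjusted p = 8.97e-10, and per host gene -1.61 ± 0.18, 8.14e-16). The main fit per circRNA of the same libraries had an SE of 0.84, and the within-age SD of log2 CPM was 1.63. The unfiltered p-values therefore do not carry the spread between libraries, and they decide nothing. Junction reads passed as well without calf 3 and adult 3 (-1.57, host gene -1.56), as did non-junction reads (-0.91). The replicate block gave -1.57 (edgeR adjusted p = 0.0197) and -1.59 per host gene (0.000228) for junction reads. Non-junction reads missed the threshold with it (-1.27, edgeR adjusted p = 0.093). The block takes out what same-numbered libraries share, here the high libraries 3 on which the hosts were chosen. Its p-values for HSPA1A therefore support nothing. The labels do not say whether same-numbered libraries belong together. Deviations of same-numbered libraries correlated at -0.0495, 0.0744 and 0.0203, against -0.0702 to 0.0435 for other pairs, which cannot decide it. With the block, 56 circRNAs passed in place of 126, and the ratio fit called 0. Without a filter 202 circRNAs passed. The count ran from 71 to 138 without 1 library (calf 1 left out 71, calf 2 74, adult 1 82, adult 2 81), and for host genes from 55 to 123 (55 without calf 2). For non-junction reads 24 loci passed, 0 to 74 without 1 library (0 without adult 2, 74 without calf 3), 13 scaled to junction reads and 174 without calf 3 and adult 3. The ratio fit called 1 circRNA, 0 to 28 without 1 library (28 without calf 3, 0 without any other), 2 with a pseudocount of 1, 0 with at least 2 non-junction reads, 0 without centring and 7 without calf 3 and adult 3. The log2 change of TTC3 ran from -0.011 (without adult 3) to 0.51 (without adult 2). Where no cause is shown by fewer samples or genes, the cause was not tested. Depth limits HSPA4 and BAG3, with 41 and 2 reads in all.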

Other observations

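Exonic circRNAs that end far beyond their listed features were a small set, 44 of 1094 (4.02%) at more than 10000 bases. That distance was set after the values were seen. HSPA1A had the most reads of the 44. It was followed by MT1A with 751 reads, DCXR with 559, HBB with 304, OAS1Y with 154 and TUBB2B with 80. HBB, a beta-globin gene, had 152 reads in each of calves 1 and 2 and 0 in the other 4 libraries. DCXR, a xylulose reductase gene, had 95, 111 and 103 reads in calves and 107, 70 and 73 in adults, a much smaller range than HSPA1A. The OAS1Y circle, of an interferon-induced gene, had 58 reads in adult 2 and 4 in adult 3. The end of each lies 14040 to 48639 bases beyond its listed features, against 16737 for HSPA1A.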
